A study of Homo sapiens with 6 samples.

Results

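The teneurins, their receptors the latrophilins and the FLRT proteins that bind the same receptors were examined in a pair of cybrids, cells that share a nucleus and differ in their mitochondria. The genes are TENM1, TENM2, TENM3, TENM4, ADGRL1, ADGRL2, ADGRL3, FLRT1, FLRT2 and FLRT3, 10 of the 19775 genes measured, read by 22 of 41091 named probe sets. The family was chosen by the size of the TENM2 difference in this same comparison, so the values of TENM2 are a description without a test. The other 9 genes were taken by family name, but with earlier results of these data known. ADGRL4, a relative of the latrophilins, was not among them and was read in a list of other adhesion receptors. Both groups carried the nucleus of the mitochondrial-DNA-free (p0) form of 143B, a human osteosarcoma line lacking thymidine kinase. 10A/143B cybrids held mitochondria of MCF10A, a non-cancerous mammary epithelial line, and 468/143B cybrids those of MDA-MB-468, a metastatic breast cancer line. Donor cells had been enucleated overnight with actinomycin-D and fused by polyethylene glycol, and the cybrids were selected with bromodeoxyuridine and without uridine. Whether a cybrid was 1 clone or a pool is not stated in the labels, and their cell line field names only the mitochondrial donor. Messenger RNA of each cybrid was measured on 3 Affymetrix arrays, and the question posed by the series' title is what mitochondria of non-cancerous origin do to oncogenic pathways in metastatic cells.

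Teneurins are large single-pass membrane proteins whose extracellular end reaches across to neighbouring cells, and they are best known for matching partner neurons during wiring of the brain. Latrophilins are adhesion G protein-coupled receptors, first found as receptors of a spider toxin, and bind teneurins through their lectin domain and FLRTs through their olfactomedin domain. FLRTs are leucine-rich repeat membrane proteins that also bind UNC5 guidance receptors. These contacts can join into larger adhesion complexes between cells.

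Sequence before annotated starts is shown for TENM2, which was low in 10A/143B, and for TENM4 and FLRT3, which were high there and have a single listed start. Each run holds the 250 bases before a transcription start annotated by RefSeq (GRCh38.p14), written 5′ to 3′ on the gene's own strand, with each CG dinucleotide in capitals. Which start the cybrids used was not measured, and whether any of these runs acts as a promoter was not tested.

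TENM2 (chr5:167072992-167073241, plus strand): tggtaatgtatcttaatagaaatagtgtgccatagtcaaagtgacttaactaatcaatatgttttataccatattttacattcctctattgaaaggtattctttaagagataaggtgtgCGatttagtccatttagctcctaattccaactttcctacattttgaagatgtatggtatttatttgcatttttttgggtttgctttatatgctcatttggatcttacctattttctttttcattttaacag
TENM2 (chr5:167754679-167754928, plus strand): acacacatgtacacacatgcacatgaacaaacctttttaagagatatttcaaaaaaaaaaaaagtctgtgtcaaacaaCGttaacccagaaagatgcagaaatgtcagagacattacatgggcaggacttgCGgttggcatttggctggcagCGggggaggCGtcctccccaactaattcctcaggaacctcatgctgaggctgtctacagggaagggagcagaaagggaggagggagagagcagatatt
TENM4 (chr11:79441031-79441280, minus strand): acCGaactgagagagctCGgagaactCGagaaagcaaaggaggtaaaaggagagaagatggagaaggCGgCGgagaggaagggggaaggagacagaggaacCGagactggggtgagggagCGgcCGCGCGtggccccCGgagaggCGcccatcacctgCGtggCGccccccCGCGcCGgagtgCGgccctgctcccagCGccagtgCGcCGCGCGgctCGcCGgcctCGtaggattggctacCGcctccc
FLRT3 (chr20:14337613-14337862, minus strand): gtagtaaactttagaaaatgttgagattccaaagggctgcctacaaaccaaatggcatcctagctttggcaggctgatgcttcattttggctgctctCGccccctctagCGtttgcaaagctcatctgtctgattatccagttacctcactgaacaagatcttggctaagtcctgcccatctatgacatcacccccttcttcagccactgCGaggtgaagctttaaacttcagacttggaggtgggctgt

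The TENM2 windows held 1 and 4 CG dinucleotides, that of FLRT3 held 3 and that of TENM4 held 27. The median over 35116 such windows of all genes was 11, with quartiles of 3 and 23. RefSeq starts were matched for 9 of the 10 members, with 23 windows in all, some of them overlapping. On either strand, the GC box GGGCGG was found in 7 of the 23 windows and in 42.6% of all windows, the TATA box TATAAA in 2 and in 10.7%, and the AP-1 motif TGACTCA in 1 and in 4.20%. The earlier of the TENM2 windows was one of the pair with the letters TATAAA, the other being a window of ADGRL2. In both windows these letters lie on the strand opposite to that of the gene, and whether they act as a TATA box was not tested.

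Values are probe set intensities on a linear scale as deposited. Differences are on the log2(intensity + 16) scale, 10A/143B minus 468/143B, with the standard error (SE) of limma's fit to all genes, and n is 3 arrays per group. Each gene is represented by its brightest probe set, taken as the one with the highest mean of log2(intensity + 16), and a gene is called where limma's adjusted p is below 0.05. Replicates 2 and 3 of each group were near duplicates. Over bright probe sets (mean log2 level above 8) the SD of their log2 difference was 0.079 (10A/143B) and 0.093 (468/143B), against 0.27 to 0.29 where replicate 1 was one of the pair. The labels tie no replicate to a culture of its own, so every p-value here measures only how these arrays vary, possibly for technical reasons. A second adjusted p, from a fit with replicates 2 and 3 averaged (2 against 2), is therefore given as "averaged". The array medians ran from 20.4 to 24.4, and no detection calls were used, so a low intensity could not be separated from background. RNA quality, read as the 3′ to 5′ ratio of the ACTB control probe sets, stood at 1.92, 1.74 and 1.59 for 10A/143B and at 1.18, 1.65 and 1.67 for 468/143B. Its part in the results was not tested.

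Defining markers were read on the same arrays. Of 8 mesenchymal and osteoblast markers, 7 reached the overall probe set median in at least 1 group, and the list summed to intensities between 10933 and 11639 on 10A/143B arrays and between 12369 and 13589 on 468/143B arrays. In 10A/143B 1 of the 8 was higher and 4 were lower (1 and 3 averaged). Of all genes, 19.9% were called higher and 15.7% lower (13.8% and 8.9% averaged). CDH11, a mesenchymal cadherin, was higher (log2 difference 1.30 ± 0.18, SE, limma adjusted p = 5.26e-04), and the matrix protein fibronectin, FN1, was lower (-2.32 ± 0.07, 2.04e-06), as were SPARC, TWIST1 and RUNX2 (-0.66, -1.35 and -0.23). The bone collagen gene COL1A2 was dim in both groups, with mean intensities of 8.49 and 8.76. COL1A1, the other collagen gene of the list, was brighter at 88.6 and 52.5 and not called (0.58, limma adjusted p = 0.149). VIM, at 8687 and 8418, made up most of the list's sum and was not called (0.047, limma adjusted p = 0.673). Of 9 epithelial markers 7 were measured and 2 reached that median, with sums of 190.7 to 211.0 and 145.0 to 150.2. KRT15, a basal keratin, was the epithelial marker called, at 109.2 against 75.5 (0.46 ± 0.14, limma adjusted p = 0.0357, averaged 0.192). EPCAM, an epithelial adhesion protein, read 55.3 against 36.8 and was not called (0.0803), and KRT5 stood at the lowest value of 1 on all 10A/143B arrays. Neuronal markers summed to 234.6 to 257.6 in 10A/143B and 183.8 to 218.3 in 468/143B over 10 genes, 4 of which reached the median. The median log2 difference of the 10 was -0.20, against the direction of the sums. The neuronal genes SYP and STMN2 had mean intensities of 2.40 and 1.45 in 10A/143B and 11.1 and 3.51 in 468/143B. SNAP25 and GAP43 were brighter, at 78.9 and 32.4 in 10A/143B and 56.1 and 31.8 in 468/143B, and not called (limma adjusted p = 0.214 and 0.997). MAP2, a dendritic microtubule protein, was the neuronal marker called, at 74.3 against 14.6 (1.55 ± 0.27, limma adjusted p = 0.00213, averaged 0.0202).

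TENM2 was the member that went down. By replicate number, its only probe set (231867_at) read 20.4, 18.9 and 21.6 in 10A/143B, then 388.0, 433.5 and 404.5 in 468/143B. The groups lay far apart, and each 10A/143B value was below the median of its own array, while each 468/143B value was above it. Mean intensities of 20.3 ± 1.33 and 408.7 ± 23.0 (SD, n = 3) stood in a ratio of 20.2. The log2 difference was -3.55 ± 0.12 (SE), or 11.7-fold on that scale, the largest decrease among the 19775 genes. Since the 10A/143B values lie near the array median, the fold depends on the offset, and the difference was -4.27 with an offset of 1 and -2.49 with an offset of 64. In bulk RNA, fewer cells that make a transcript and less of it per cell cannot be told apart.

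Of the 9 other members, 5 were higher in 10A/143B and 0 lower, both in the fit to 6 arrays and with replicates 2 and 3 averaged. Over all genes, 19.9% were called higher and 15.7% lower on 6 arrays, and 13.8% and 8.9% averaged. Those that rose were TENM3, TENM4, ADGRL1, ADGRL2 and FLRT3, and the arrays of the groups did not overlap for any of them (24.2% of all genes lay apart in this direction and 21.6% in the other). The median difference of the 9 was 0.85, against -0.017 over all genes. Of the 9, 8 reached the overall probe set median in at least 1 group, as 13079 of the 19775 genes did. In a fit limited to those 13079, 4012 were higher and 3245 lower. The number of members called depends on how probe sets are chosen for FLRT2, ADGRL3, TENM3 and ADGRL2. By the highest mean linear intensity, a rule added after seeing the data, another probe set stands for FLRT2. By that rule 6 of the 9 were higher. When every probe set counted equally towards its gene, 7 were higher. Without _x_at and _s_at probe sets 4 were higher. TENM3 (-0.11) and ADGRL2 (0.094), left with dim probe sets, were then not called, while ADGRL3 was called higher (0.86).

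**Figure D1:**
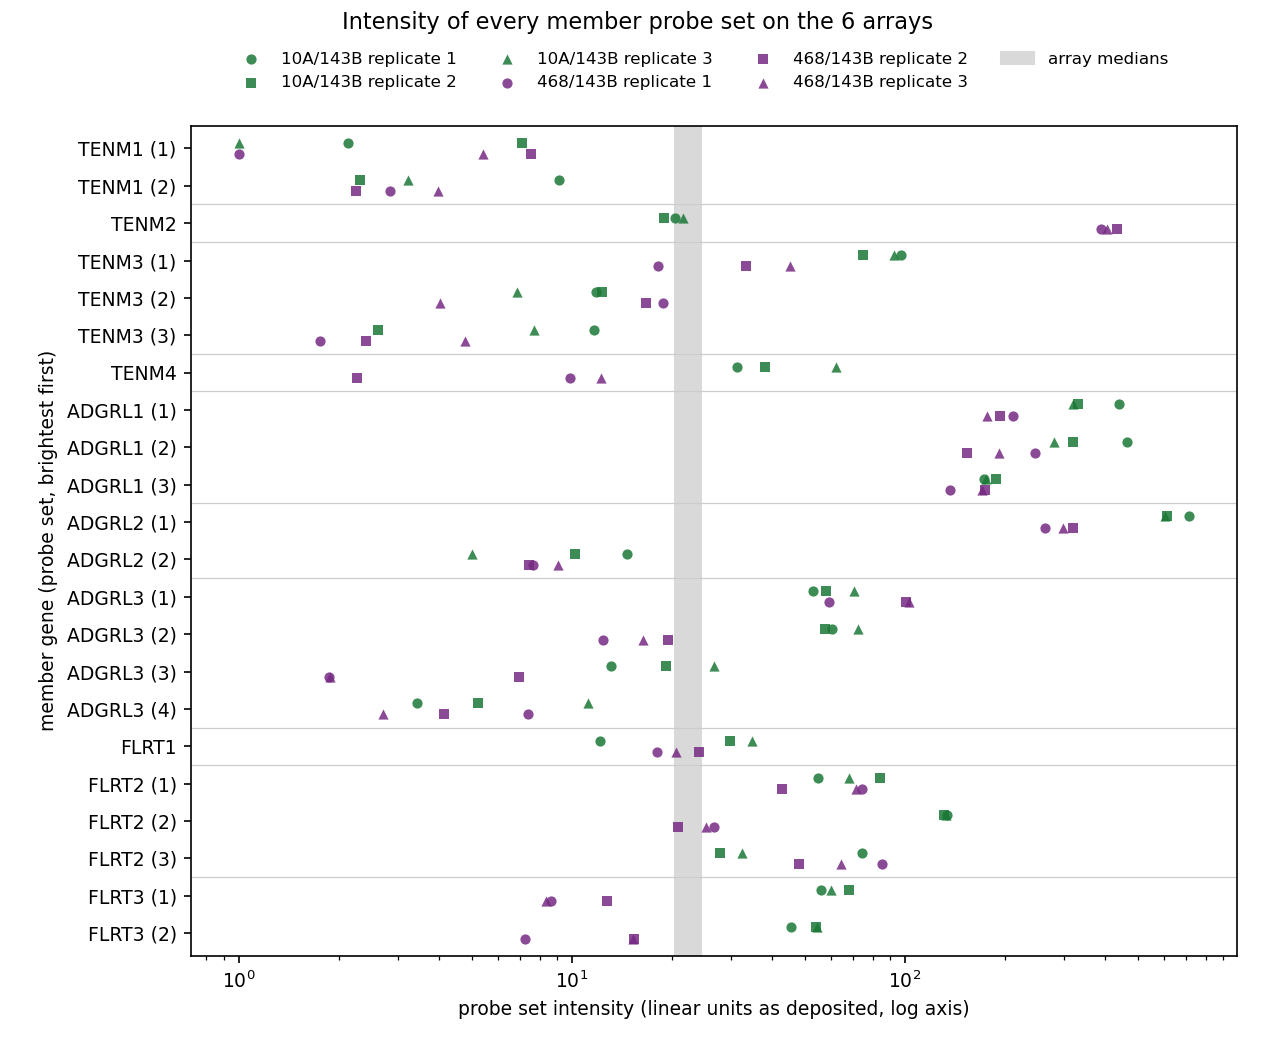
Intensity of each member probe set (rows, brightest probe set of a gene first) on each array, on a log axis, in green for 10A/143B and purple for 468/143B, with marker shape by replicate and the range of array medians (20.4 to 24.4) shaded. TENM2 stands at 18.9 to 21.6 in 10A/143B and at 388.0 to 433.5 in 468/143B, while both FLRT3 probe sets run the other way.

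Among the other teneurins, TENM3, which directs matching of synaptic partners in the visual system and hippocampus, read 97.7, 75.1 and 93.1 in 10A/143B and 18.1, 33.4 and 45.3 in 468/143B on its brightest probe set, 219523_s_at. All 10A/143B values were above all 468/143B values, and replicate 1 of 468/143B was the lowest. TENM3 was higher by 1.15 ± 0.24, 2.22-fold (limma adjusted p = 0.00534, averaged 0.0254), or by 0.67 with an offset of 64. The call rested on that probe set. The others read below the array median on all 6 arrays, with differences of -0.11 ± 0.23 and 0.28 ± 0.16 (limma adjusted p = 0.771 and 0.245 over probe sets). TENM3-AS1, a gene on the opposite strand and the nearest measured neighbour on one side, differed by 0.75 on its brighter probe set (limma adjusted p = 0.0481, averaged 0.314) and by -0.20 on the other.

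TENM4, known for a role in myelination and in essential tremor, read 31.3, 38.1 and 62.2 in 10A/143B and 9.85, 2.27 and 12.2 in 468/143B. Its groups did not overlap, though the values are dim and all those of 468/143B lay below their array medians. TENM4 was higher by 1.30 ± 0.26, 2.47-fold on the log2(intensity + 16) scale (limma adjusted p = 0.00379, averaged 0.0203). Its size depends on the offset, at 2.47 on the log2 scale with an offset of 1 and 0.57 with 64, both called. TENM1, the X-linked teneurin, had no reading above 9.13 on either probe set. It was not called (-0.09 ± 0.17, limma adjusted p = 0.740), with a 95% interval from -0.48 to 0.30.

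Latrophilins 1 and 2 were higher in 10A/143B. ADGRL2, the latrophilin with the widest expression outside the brain, read 714.1, 613.1 and 604.7 in 10A/143B against 263.2, 319.6 and 298.2 in 468/143B. Every 10A/143B array was at least as high as 604.7 and no 468/143B array passed 319.6. The difference was 1.09 ± 0.10, 2.13-fold (limma adjusted p = 5.09e-05, averaged 0.00117). Its other probe set was dim in both groups, at 9.95 and 8.03 on average, and differed by 0.094 ± 0.17 (limma adjusted p = 0.731). ADGRL1, the receptor first purified with the toxin of the black widow, read 439.6, 330.8 and 319.6 in 10A/143B and 210.8, 192.7 and 176.1 in 468/143B, again without overlap. The difference was 0.85 ± 0.13, 1.80-fold (limma adjusted p = 0.00108, averaged 0.00967). A second probe set gave 0.79 ± 0.21 (limma adjusted p = 0.0206 over probe sets, averaged 0.0666), and the third gave 0.15 ± 0.12 (0.417).

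ADGRL3, a latrophilin linked by genetic studies to attention deficit, had no settled direction. Its brightest probe set, 209867_s_at, read 53.1, 58.1 and 70.5 in 10A/143B and 59.3, 101.1 and 102.5 in 468/143B. These groups overlapped, and the difference of -0.41 ± 0.22 was not called (limma adjusted p = 0.189, 95% interval -0.91 to 0.08). The next probe set, 209866_s_at, read 60.5, 57.7 and 72.5 against 12.4, 19.4 and 16.3. On that one the groups lay far apart the other way, by 1.31 ± 0.19 (limma adjusted p = 8.42e-04 over probe sets, averaged 0.0190). The third, dimmer one lay the same way (0.86 ± 0.19, limma adjusted p = 0.00929, averaged 0.0452), and the fourth did not pass (0.12 ± 0.16). The array of replicate 1 in 468/143B weighed on the brightest probe set, which was called lower without it (-0.63, limma adjusted p = 0.0282).

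FLRT3, which in embryos and in culture modulates cell adhesion and growth factor signalling, was higher in 10A/143B on both of its probe sets. On its brightest probe set it read 56.1, 68.1 and 60.1 in 10A/143B and 8.63, 12.7 and 8.34 in 468/143B. Each 10A/143B value was above, and each 468/143B value below, the median of its array. The difference was 1.58 ± 0.18, 2.99-fold on the log2(intensity + 16) scale (limma adjusted p = 1.76e-04, averaged 0.00571), and it was 2.54 with an offset of 1 and 0.76 with 64, both called. Its second probe set moved the same way, by 1.25 ± 0.20 (limma adjusted p = 0.00162 over probe sets, averaged 0.0267), so FLRT3 alone among members with several probe sets was called on each of them.

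FLRT2, a ligand of UNC5D and of latrophilins, was split between its probe sets. The one with the highest mean log2 level, 240259_at, read 54.9, 84.4 and 68.1 in 10A/143B and 74.5, 42.8 and 71.5 in 468/143B. Those values were mixed, and the difference of 0.12 ± 0.23 was not called (limma adjusted p = 0.735, 95% interval -0.39 to 0.64). By contrast 204359_at read 133.4, 130.7 and 132.5 against 26.7, 20.8 and 25.3, with the groups far apart. On this probe set FLRT2 was higher by 1.88 ± 0.15, 3.69-fold (limma adjusted p = 4.40e-05 over probe sets, averaged 0.00331). The third, 204358_s_at, differed by -0.48 ± 0.30 (limma adjusted p = 0.293). FLRT1, read by 1 probe set at mean intensities of 25.6 ± 11.9 and 20.9 ± 3.06 (SD), did not pass (0.13 ± 0.25, limma adjusted p = 0.737, 95% interval -0.43 to 0.70).

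Counted by probe set, 10 of the 21 of the 9 members were higher in 10A/143B and 0 lower, against 18.6% and 12.4% of all named probe sets. They belonged to 7 genes, those called by gene together with ADGRL3 and FLRT2. Of the 21 probe sets, 14 reached the overall probe set median (an intensity of 22.01) in at least 1 group.

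**Figure D2:**
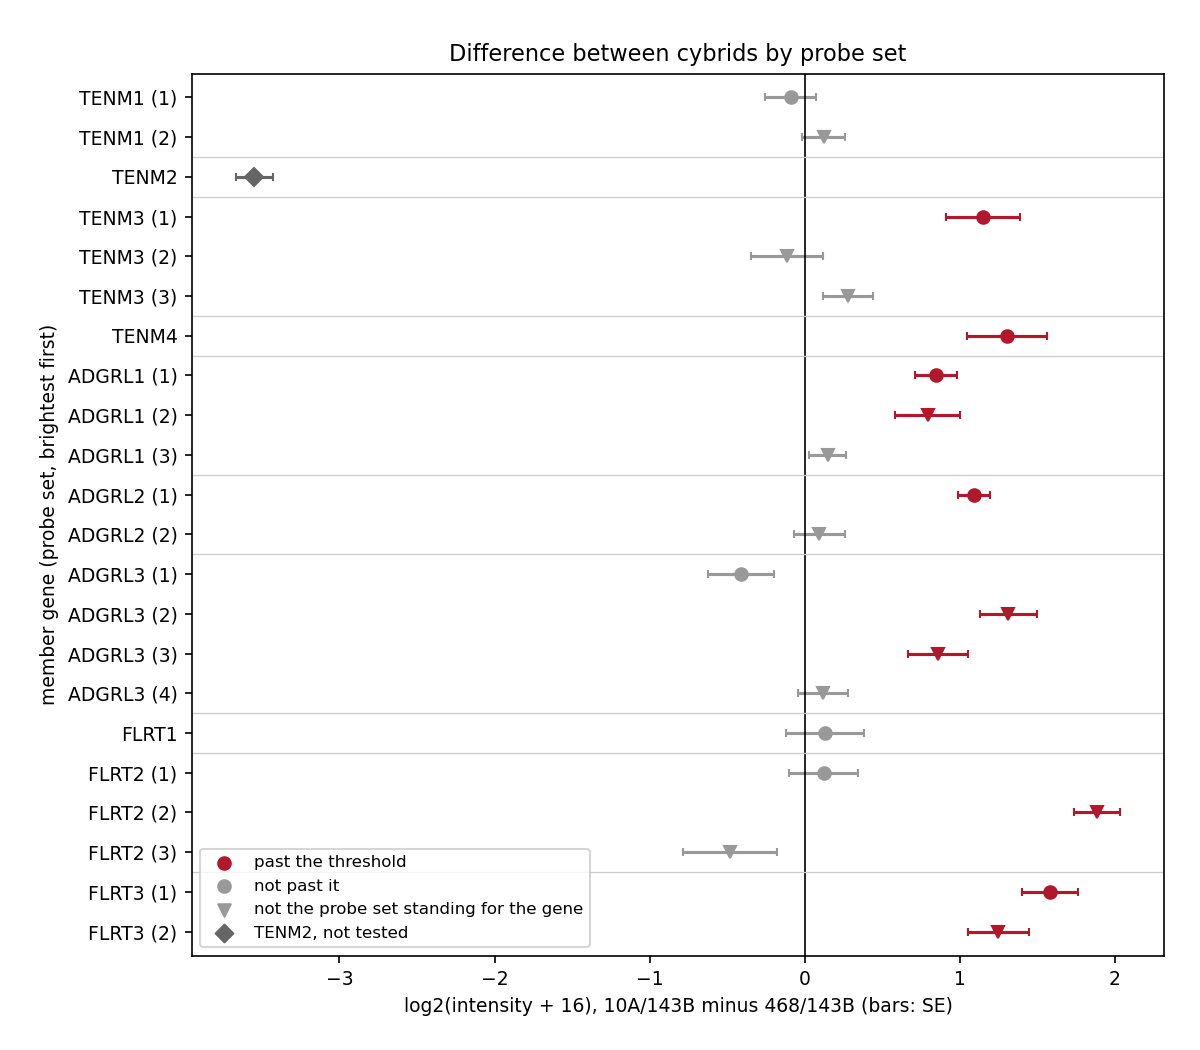
Log2 difference, 10A/143B minus 468/143B, of each of the 22 member probe sets with its SE from the fit over 41091 probe sets (n = 3 arrays per group). Red marks probe sets past the threshold, grey those not past it, triangles those not standing for their gene, and the diamond TENM2, which was not tested. The 10 red points lie between 0.79 and 1.88, and TENM2 lies at -3.55.

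The members sit on 8 chromosomes, and each was set beside the measured genes next to it. TENM2, 1285 kb long on chromosome 5, had 20 measured neighbours (10 on each side). Their median was 0.0035, their lowest value -0.58 and their highest 3.12, and 7 of them were higher and 1 lower. Of the 889 genes measured on that chromosome, 26.9% were higher and 12.5% lower. The nearest to TENM2 on either side were LOC102546299 (-0.25, limma adjusted p = 0.567) and the Hippo pathway gene WWC1 (0.51, limma adjusted p = 0.00275). The neighbours of TENM4 on chromosome 11 had a median of -0.30 and a highest value of 0.46, those of ADGRL1 on chromosome 19 -0.26 and 0.22, and those of FLRT3 on chromosome 20 had 0.054 and 0.98. TENM4, ADGRL1 and FLRT3 thus lay above all of their 20 neighbours. TENM2, chosen as the largest decrease of all genes, lies below its own by that choice. As a whole, chromosomes 11, 19 and 20 had 12.8%, 8.41% and 14.6% of their genes higher, and 19.8%, 23.2% and 19.0% lower. The neighbourhood of TENM3 differed, since 9 of its 20 neighbours on chromosome 4 were higher and 0 lower, up to 2.10. That chromosome as a whole had 36.4% of 793 genes higher and 3.78% lower. ADGRL3 lies on it too, with 6 neighbours higher and 2 lower. For ADGRL2 on chromosome 1, 3 neighbours were higher and 2 lower, with a highest value of 1.65. FLRT1 on chromosome 11 had 2 neighbours higher and 10 lower, with a median of -0.45. The counts were 6 and 2 for FLRT2 on chromosome 14, and 6 and 4 for TENM1 on the X chromosome.

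**Figure D3:**
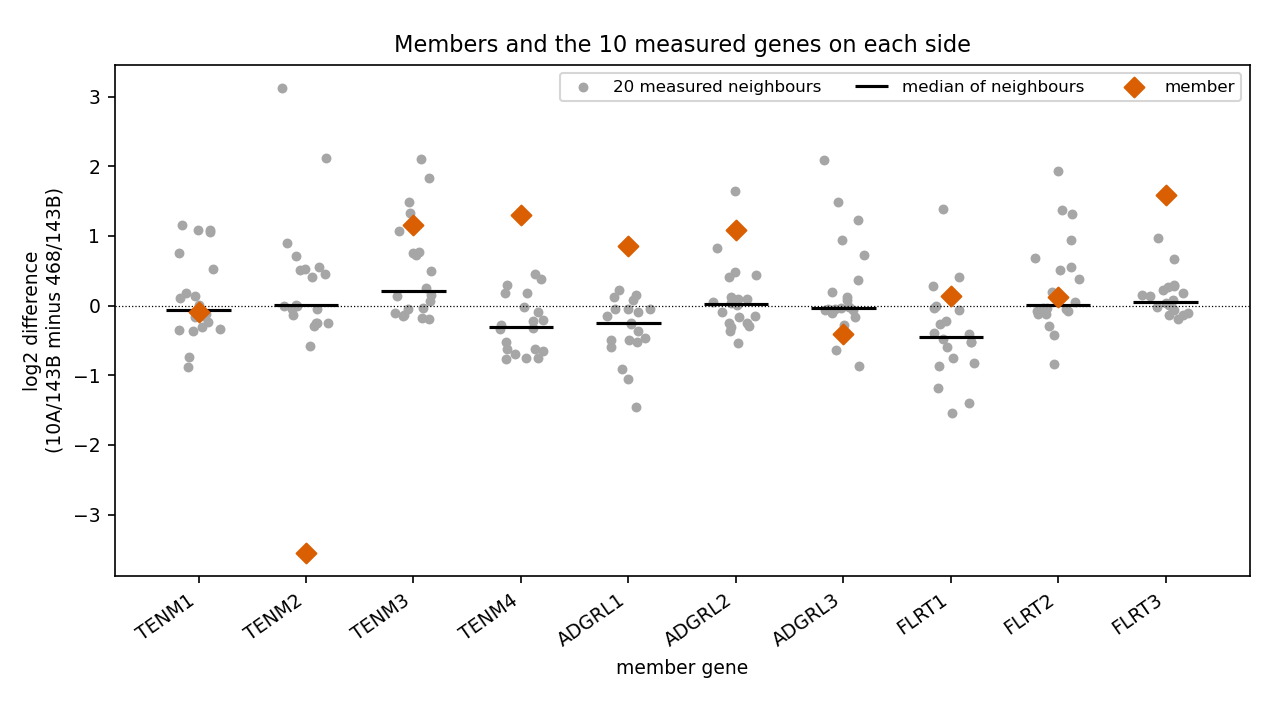
Log2 difference (10A/143B minus 468/143B) of each member (diamond) and of the 10 measured genes on each side of it (grey points), with the median of these neighbours as a bar. TENM4, ADGRL1 and FLRT3 lie above all of their neighbours, while TENM2 at -3.55 lies below its own by the choice of the largest decrease, and TENM3 lies among several that were also higher.

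Long genes were on the whole higher in 10A/143B, and most members are long. TENM1, TENM2, TENM3, TENM4, ADGRL2 and ADGRL3 are in the longest of 10 length classes (from 153.5 kb), whose median difference was 0.16. FLRT2 is in the class below (0.18), ADGRL1 and FLRT1 in the class with a median of 0.091, and FLRT3, 14.6 kb long, in one with a median of -0.069. With the trend over length removed, TENM3 was at 0.88, TENM4 at 1.05, ADGRL1 at 0.77, ADGRL2 at 0.85, FLRT3 at 1.65 and TENM2 at -3.82, and the 5 members called on 6 arrays were still called. ADGRL3 was then called lower (-0.67, limma adjusted p = 0.0449).

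Genes that bind or act with the family were read from 4 lists. Of 17 binding partners 14 were measured, and 3 were higher and 0 lower in 10A/143B (3 and 0 averaged), with a median of 0.15. The share higher, 21.4%, was near the 19.9% of all genes. SHANK2, a scaffold of excitatory synapses whose family binds latrophilin tails, was higher by 1.41 ± 0.20 (limma adjusted p = 6.26e-04), the methyl-CpG binding protein MBD1 by 0.87 ± 0.09 (1.06e-04) and the guidance receptor ROBO1 by 0.71 ± 0.11 (0.00110). With the replicate number as a block, 5 partners were higher and 1 lower, where 21.3% of all genes were higher and 17.8% lower. The added calls were SHANK3 (0.62, limma adjusted p = 0.0280 in the replicate block fit), UNC5B (0.49, 0.0367) and FGFR1 (-0.27, 0.0228). UNC5B is an FLRT and netrin receptor and FGFR1 a growth factor receptor that FLRTs bind.

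G protein subunits and exchange factors for RhoA, through which latrophilins and related receptors can signal, included 6 higher and 2 lower of 13, the same counts averaged, with a median of 0.43. These are 46.2% and 15.4% of the list, against 19.9% and 15.7% of all genes. All 13 reached the overall probe set median in at least 1 group, as 13079 of the 19775 genes did. In a fit limited to those 13079, 4012 were higher and 3245 lower, so all genes are a dimmer background than this list. ARHGEF12, an exchange factor driven by G12 and G13 proteins, was higher by 0.84 ± 0.07 (limma adjusted p = 3.46e-05), GNAQ, the alpha subunit of Gq, by 0.77 ± 0.09 (1.98e-04) and GNAI3 by 0.72 ± 0.10 (4.33e-04). GNAI2, another inhibitory alpha subunit, was lower by 0.76 ± 0.14 (limma adjusted p = 0.00242). The list thus held changes in both directions within a subunit class.

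Of 29 other adhesion G protein-coupled receptors 26 were measured, and 3 were higher and 1 lower (the same averaged), with a median of -0.0042. ADGRA3 rose by 1.82 ± 0.13 (limma adjusted p = 1.68e-05), the planar polarity cadherin CELSR2 by 1.36 ± 0.14 (1.22e-04) and ADGRG6, which Schwann cells need for myelination, by 0.81 ± 0.12 (8.44e-04). ADGRE5, the leukocyte antigen CD97 and a neighbour of ADGRL1, was lower by 0.91 ± 0.09 (limma adjusted p = 7.42e-05). ADGRL4, a relative of the latrophilins found in endothelium, was dim at 4.05 and 3.62 and not called (0.032 ± 0.12, limma adjusted p = 0.877). Shares of this list called were thus below those of all genes in both directions, and 10 of its 26 genes reached the median of all probe sets.

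Other adhesion genes of synapses included 7 higher and 2 lower of 28 measured (30 listed), or 4 and 0 averaged and 9 and 3 with the replicate block, with a median of 0.026. The share higher was 25% against 19.9% of all genes, and averaged 14.3% against 13.8%, near the background. The receptor phosphatase PTPRD was higher by 1.37 ± 0.21 (limma adjusted p = 8.85e-04, averaged 0.00550), LRFN5 by 1.16 ± 0.18 (9.19e-04, averaged 0.0199), LRFN3 by 1.08 ± 0.16 (7.45e-04, averaged 0.0247) and the neuroligin NLGN1 by 1.03 ± 0.24 (0.00995, averaged 0.0421). The calls that averaging ended were those of LRRC4C, LRRTM4 and LINGO2, which were higher, and LRRTM1 and SLITRK2, which were lower. LRRC4C, LRRTM4 and LRRTM1 read below the array median on all 3 arrays of each group, and LRFN5 on all 3 of 468/143B.

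**Figure D4:**
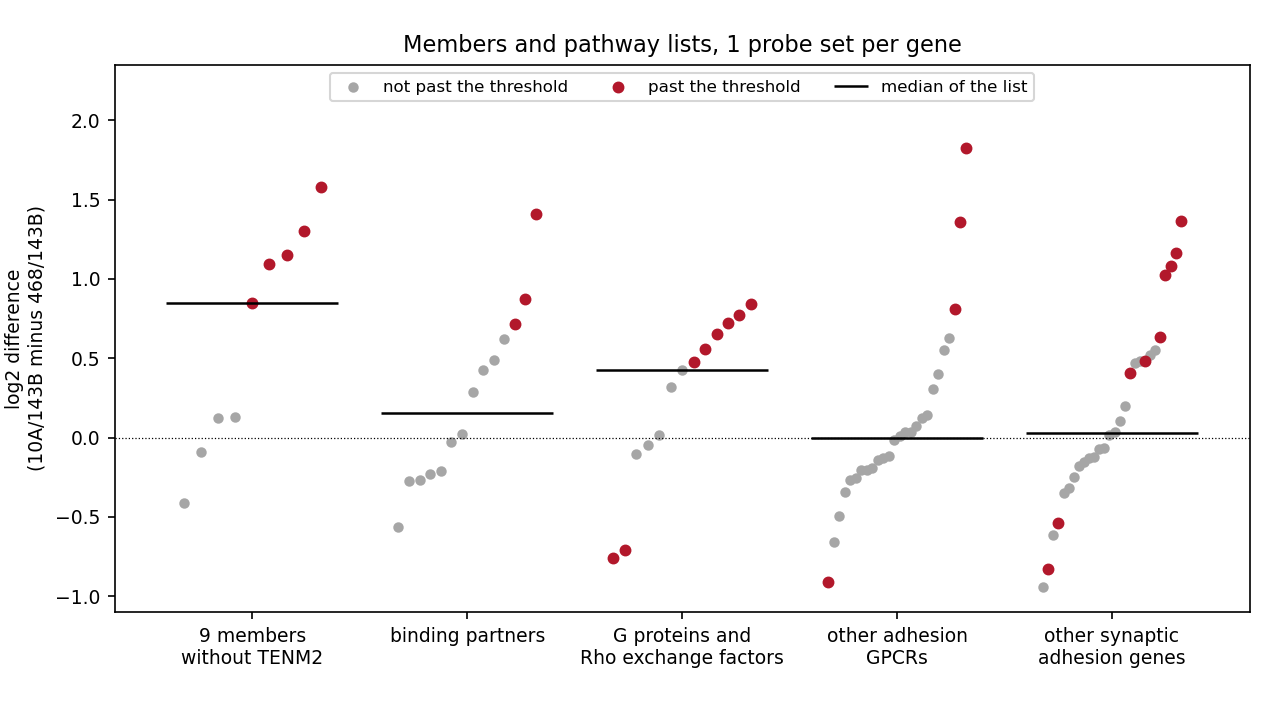
Log2 difference (10A/143B minus 468/143B) of the 9 members other than TENM2 and of the genes of 4 lists, 1 point per gene in order of value, red where past the threshold, with the list median as a bar. The medians are 0.85, 0.15, 0.43, -0.0042 and 0.026 from left to right.

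Over the 6 arrays, the genes whose profile was most like that of TENM2 were INF2 (Pearson r = 0.9998), TUFT1 (0.9997), BLVRB (0.9993), PCGF1 (0.9993) and PEA15 (0.9992), out of 2020 genes that differed by at least 1 in either direction and reached the overall median. These arrays form 2 groups with near duplicates among them, so a high r says mainly that a gene was also lower in 10A/143B with little spread. The differences of these 5 genes ran from -1.16 to -1.91, smaller than that of TENM2.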

How the data were processed

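Messenger RNA of 6 cybrid samples (3 per group, grouped and numbered by source name) was measured on Affymetrix arrays from 5 µg of total RNA each, per the labels' protocols. The sample titles number the arrays differently. In both groups the array titled 3 is replicate 1 here, and those titled 1 and 2 are replicates 2 and 3. The deposited values are linear intensities, 1 for each of 54675 probe sets. How they were background-corrected, summarised and scaled is not given in the sources used here. Array medians were not equal, and values were used as deposited. Symbols came from the platform's probe table, keeping the 41091 probe sets with 1 symbol, of which 41037 were updated through Entrez identifiers to RefSeq (GRCh38.p14). The probe set with the highest mean log2 value stood for a gene. Groups were compared in R 4.3.3 with limma 3.58.1 (lmFit, then eBayes with an intensity trend). Benjamini-Hochberg adjustment was over all 19775 genes, or over all named probe sets where stated. The fit was run on simulated arrays to check the size and direction of planted differences. Those arrays were independent, without near duplicates, so they do not test the p-values of these data.

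The members and gene lists were chosen with earlier results of these data known. Genes named are all members on every probe set, of each list up to 4 called genes with the largest change, the nearest measured neighbours, and the 5 genes most like TENM2 by Pearson r. Further names (FN1, CDH11, SPARC, TWIST1, RUNX2, COL1A2, COL1A1, VIM, KRT5, KRT15, EPCAM, SYP, STMN2, SNAP25, GAP43, MAP2, ADGRL4, the genes that single fits added or ended, TENM3-AS1) were chosen after their values were seen. Same-numbered replicates deviated together across groups (correlations over bright probe sets of 0.27, 0.22 and 0.21 for replicates 1, 2 and 3). Replicates 2 and 3 correlated as well with each other across groups (0.20 and 0.26). The check thus sets only replicate 1 apart and cannot show that all the numbers pair the samples. The main fit used no pairing. Alternatives were the offset, scaling, a level filter, no trend, other probe set rules, the replicate block, averaging, leaving out each array, a length trend and, chosen after seeing the data, the probe set with the highest mean linear intensity.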

Additional observations from a re-analysis of the deposited data

How the results depend on the processing

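Over 18 alternatives the number of the 9 members called ran from 4 to 7 (5 on 6 arrays), and that of pathway list genes from 19 to 34 (24 on 6 arrays). Calls over all genes fell to 4483 with replicates 2 and 3 averaged, from 7042. Leaving out 1 array gave 5641 to 8061 calls. The higher share of calls, 55.8% as deposited, was 45.7% after quantile normalization and 46.0% after median centring, with the all-gene median at -0.12 there in place of -0.017. ADGRL1, TENM4 and FLRT3 kept direction and call throughout, but their size moved, from 0.57 to 2.47 for TENM4, 0.76 to 2.54 for FLRT3 and 0.60 to 0.93 for ADGRL1. Without _x_at and _s_at probe sets TENM3 was at -0.11 and ADGRL2 at 0.094, neither called, and the probe sets left for them were dim. ADGRL3 turned to 0.86 there and to 0.47 with the mean of its probe sets, called both times, and was called lower after quantile normalization (-0.63). FLRT2 was called with the mean of its probe sets (0.51) and with the probe set of highest mean linear intensity (1.88, limma adjusted p = 3.44e-05), chosen after seeing the data. It was not called, and below 0, after quantile normalization (-0.10), without the length trend (-0.027) and without 10A/143B replicate 2 (-0.0051), and it ran from -0.078 (without 468/143B replicate 2) to 0.25 as single arrays were left out. FLRT1 ran from -0.035 (without 10A/143B replicate 3) to 0.39 and TENM1 from -0.22 to 0.011 (without 468/143B replicate 2) in the same way, and TENM1 was at 0.016 with the mean of its probe sets and did not pass the level filter. The cause of these changes was not tested. TENM2 ran from -4.27 to -2.49. In the replicate block 7750 genes were called, and it changed no member's call. The number of arrays limits the precision, and for dim probe sets the unknown background does.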
